A study of Mus musculus with 12 samples.

Results

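Adenomas of Apc-min mice were compared with normal tissue in 3 Notch genotypes, and the genes described here are those that differed in the same direction by more than 1 on the log2 scale (over 2 on the linear scale) in every genotype. The difference was taken between the mean of the 2 tumour arrays and the mean of the 2 normal arrays of a genotype. Of 22994 features (named genes, or probes without a name), 607 met this rule, 491 of them higher and 116 lower in tumours. A gene name could be read from the probe identifier for 185 of these members, 150 higher and 35 lower, and 422 are known only by that identifier. Before 1 probe was kept for each gene, 616 probes met the rule, and all 616 passed the filter on background signal. Because these differences chose the members, those of single members are given below as a description with no test. Counts of calls over whole gene lists include the members and support nothing about them.

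All 12 samples came from Apcmin mice, which carry 1 mutated copy of the tumour suppressor Apc and form intestinal adenomas, so normal tissue carries the mutation too. The Notch-inactivated mice are Vil-Cre;Mib1f/f, in which Cre driven by the Villin promoter deletes Mib1 in the gut epithelium. Mib1 is a ubiquitin ligase that marks Notch ligands for the uptake by which they activate the receptor. The Notch-activated mice are Vil-Cre;RosaN1+/RN1, in which the same Cre switches on a Notch1 transgene at the Rosa locus. The wild type (WT) mice have neither alteration. Each genotype has 2 tumour and 2 normal arrays. Total RNA of whole tissue was labelled with biotin and read on Illumina bead arrays, whose values are log2 signals. The labels give no gut segment, age or sex, and do not state whether a group's 2 arrays are separate animals. The p-values below therefore measure only how far such arrays scatter, which may be technical scatter.

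Adenomas of Apc-min mice start when epithelial cells lose Apc function and beta-catenin then drives Wnt target genes without a signal. A tumour of this kind also holds stroma that the epithelium recruits or stimulates: fibroblasts and their matrix, vessels, and cells of the innate and adaptive immune system. Notch acts in the same epithelium, where it favours absorptive and progenitor fates over goblet, Paneth and enteroendocrine fates. In whole tissue, more or fewer cells of a type and more or less RNA per cell cannot be told apart.

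The deletion and the transgene were looked at first. The eGFP probe, which reads a reporter that such Notch1 alleles carry, had a log2 signal of 9.5 and 9.73 in Notch-activated tumours and 9.76 and 10.20 in Notch-activated normal tissue, against at most 5.48 on the 8 other arrays. Mib1 read 6.19 and 6.27 in Notch-inactivated tumours, 6.83 and 6.80 in Notch-activated tumours and 6.73 and 6.77 in WT tumours. In normal tissue its values were 6.17 and 6.07 in Notch-inactivated, 6.65 and 6.38 in Notch-activated and 6.37 and 6.44 in WT mice. The position of this probe relative to the deletion is not given, so it may check nothing. Markers of gut epithelium were present in normal tissue: the mean log2 signal of 12 colonocyte genes was 8.11 to 10.02 over the 6 tumour arrays, against 10.58 to 11.75 over the 6 normal arrays. The mean over 10 Paneth cell genes, a small intestinal type, spanned 5.46 to 10.68 on normal arrays, so normal samples were not alike in this respect. Across features, the 2 arrays of each group had a correlation of 0.985 to 0.991.

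Names rest on a gene number inside the probe identifier, which follows 1 zero for 82 named members, 2 zeros for 66, and is replaced by an antibody or T cell receptor segment name for 37. The reading after 2 zeros is less firm: probes so named as ribosomal protein genes, which every cell expresses, had a mean log2 signal over 8 in 42.9% of 21 cases, against 98.2% of 57 with 1 zero. Among the genes below, Il1rl1, Dcn, Spp1, Col5a1, Col6a3, Thbs2, Loxl1, Ltbp1, Ltbp2, Zeb1, Acta2, Pecam1, Emcn, Robo4 and Eng have names of this less firm kind. So do Lyz2, Mmp12, Timp3, Cxcl14, Ccl21a, Ccl21c, the Bcl2a1 genes, Igkc, Iglv1, Sox4, Clca1, Klf4, Hpgd, Slc9a2, Mep1b, Ccl28, Gsta1, Gsta2, Gsdmc2, Leng9, D16Ertd472e and Hsd11b2. Among genes that are no members, the same holds for Nkd1, Ptn, Slc5a8, Aqp4, Synpo2, Cxcl9, Gsdmc3 and Gsdmc4.

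The background limit of an array, the 95th percentile of 50 probes for foreign sequences, lay between 5.58 and 5.82. A member whose normal tissue stayed under this limit on both arrays has no measured level there, and its fold is then written as at least N-fold (the tumour mean against the higher of the limit and the signal on each normal array). This held in all 3 genotypes for 126 of the 491 higher members. A tumour was at background in all 3 genotypes for 1 of the 116 lower members.

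The members' differences were smallest in Notch-activated mice. Here and below, 3 differences given without names are for Notch-inactivated, Notch-activated and WT mice in that order. The median difference of the 491 higher members was 2.24 in Notch-inactivated, 1.63 in Notch-activated and 2.53 in WT mice, and that of the 116 lower members was -2.47, -1.20 and -2.64 in the same order. Over all features the medians were -0.01, -0.02 and -0.03. The smallest of the 3 differences was the Notch-activated one for 384 higher members (78.2%) and for 107 lower members (92.2%). Notch-activated mice also set the limit on membership: 655 features were higher by over 1 in Notch-activated tumours, against 1572 in Notch-inactivated and 1638 in WT tumours, and 170 features were lower by over 1, against 1306 and 1437. Of the features, 1261 were higher and 984 lower by over 1 in both Notch-inactivated and WT tumours. Only 18 features passed 1 with opposite signs in 2 genotypes.

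**Figure D1:**
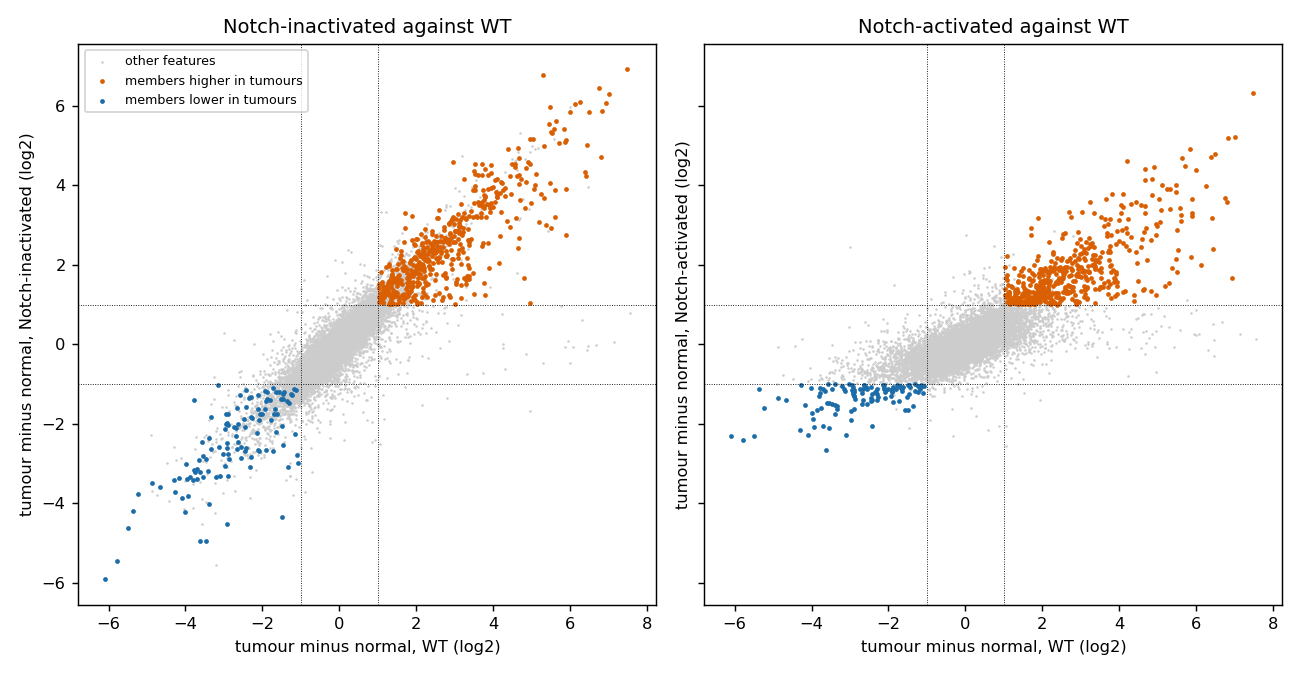
Tumour minus normal log2 difference of every feature in Notch-inactivated (left) and Notch-activated mice (right) on the vertical axis, against the WT difference on the horizontal axis. Orange and blue points are the 491 higher and 116 lower members, grey points the other features, and dotted lines mark a difference of 1. Most members lie nearer to the line of 1 in the Notch-activated panel than in the Notch-inactivated one.

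The rule passed 2.14% of all features as higher and 0.504% as lower. Over all 12 arrays with genotype as a covariate (limma, adjusted p under 0.05), 29.7% of features were called higher and 33% lower in tumours, so a call alone marks a broad class and membership a narrow one. All 6 tumour arrays lay above all 6 normal arrays for 460 of the 491 higher members, and below them for 90 of the 116 lower members, where 15.2% and 15.9% of all features did so. Since the rule used these arrays, nothing is read from those counts. A stricter difference of over 2 in each genotype was met by 132 higher members, 41 of them named, and by 10 lower members, 3 of them named. Over 3, there were 50 higher members, 17 of them named, and 0 lower members.

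The members next to the threshold were Dcakd, D16Ertd472e and an immunoglobulin kappa segment among the higher ones, with smallest differences of 1.02, 1.02 and 1.01. Just outside were Cxcl9 (0.996), C1qa (0.987) and a further kappa segment (0.986). Among the lower ones Leng9, Hsd11b2 and Gsta2 were just inside, with 1.01, 1.01 and 1 as the size of the smallest difference, and Gsdmc4 (0.994), Zfp467 (0.990) and Gsdmc3 (0.987) just outside. The threshold thus divides genes of nearly equal difference.

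Secreted regulators of growth factors led the named higher members, together with a cytokine receptor. Igfbp5, a binding protein that holds insulin-like growth factors in the matrix, read 11.43 and 11.70 in Notch-inactivated tumours against 5.70 and 5.76 in their normal tissue, 10.48 and 11.04 in Notch-activated tumours against 6.27 and 5.68, and 12.14 and 12.18 in WT tumours against 5.72 and 5.63. The 6 tumour arrays lay far above the 6 normal arrays, and the Notch-activated tumours were the lowest of them. In WT mice Igfbp5 was at least 84.5-fold higher in tumours. Igfbp4, which binds the same growth factors, read 11.23 and 11.13 in Notch-inactivated tumours against 7.37 and 7.63 in their normal tissue, 9.63 and 10.05 in Notch-activated tumours against 6.13 and 5.73, and 11.16 and 11.24 in WT tumours against 5.71 and 6.04. Its normal level was higher in Notch-inactivated tissue than in either other genotype, which made its difference smallest there (3.68, 3.91 and 5.33 in Notch-inactivated, Notch-activated and WT mice). These were 2 of the 11 measured genes of the list of insulin-like and other growth factor genes, of which 9 were called higher and 1 lower. Among the others, Igf1, the ligand itself, had differences of 2.02 in Notch-inactivated, 0.86 in Notch-activated and 1.83 in WT mice (called higher, limma adjusted p = 3.8e-05). Ptn, a heparin-binding growth factor, had 5.97, 0.86 and 6.0 (adjusted p = 0.000664) and fell short of the rule in Notch-activated mice alone.

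Il1rl1 encodes the receptor for interleukin 33. Its probe read 11.04 and 12.19 in Notch-inactivated tumours against 5.12 and 5.52 in their normal tissue, 11.10 and 11.21 in Notch-activated tumours against 6.43 and 5.43, and 12.15 and 12.23 in WT tumours against 5.23 and 5.14. The bound on its fold was at least 59.2 in Notch-inactivated and 86.4 in WT mice. A second Il1rl1 probe did not follow it, with differences of -0.18, -0.10 and -0.18 in Notch-inactivated, Notch-activated and WT mice, so the 2 probes disagree. The second probe has the firmer name, read after 1 zero, and the first the less firm one. Whether the high probe reads Il1rl1 is thus uncertain. Spp1, the secreted adhesion protein osteopontin, read 10.47 and 9.89 in Notch-inactivated tumours against 5.54 and 6.63 in their normal tissue, 10.42 and 9.86 in Notch-activated tumours against 5.39 and 5.65, and 8.57 and 10.41 in WT tumours against 5.29 and 5.27. It was among the few leading members with its largest difference in Notch-activated mice, where it was at least 21.1-fold higher in tumours. Spp1 and Il1rl1 were the 2 members among 7 measured genes of the regenerative and fetal-like list, of which 5 were called higher and 1 lower.

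**Figure D2:**
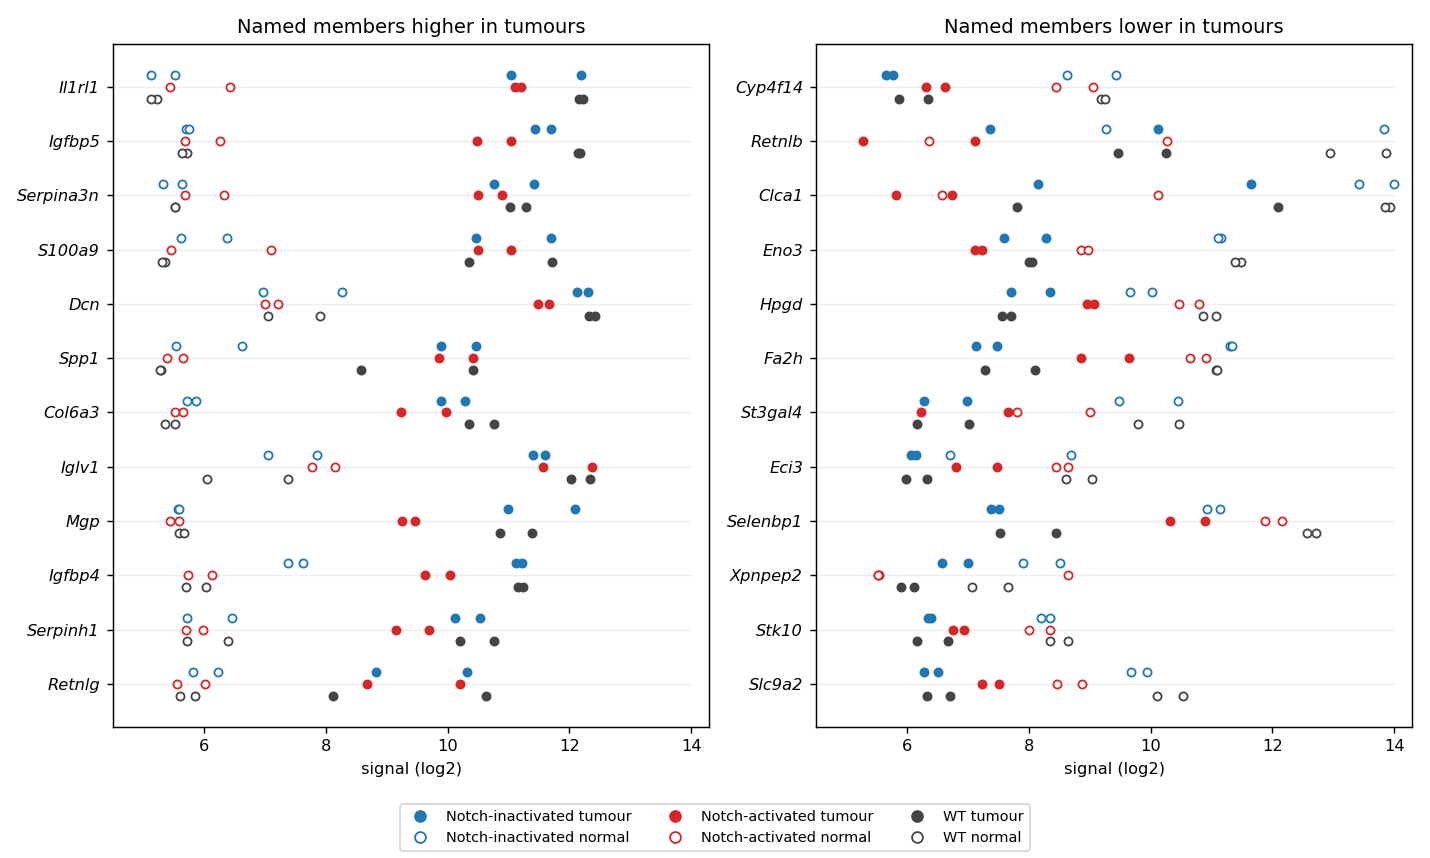
Log2 signal on each of the 12 arrays for the 12 named members with the largest smallest difference over the 3 genotypes, higher in tumours on the left and lower on the right. Filled circles are tumour arrays and open circles normal arrays, blue for Notch-inactivated, red for Notch-activated and dark grey for WT. The higher members show 2 separate clouds, while Retnlb, Clca1, Eci3 and Xpnpep2 on the right overlap between tissues.

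Some protease inhibitors were higher in tumours beside proteases. Of 11 measured genes of the protease and inhibitor list, 9 were called higher and 1 lower, and 6 were members: Serpina3n, Serpinh1, Timp2, Timp3, Adamts4 and Mmp12. The list's median difference, averaged over genotypes, was 1.59, against -0.02 for all features. The serpin family as a whole was mixed: of 14 measured, 7 were called higher and 3 lower, and 3 were members. Its median difference was 0.09 in Notch-inactivated, 0.12 in Notch-activated and 0.45 in WT mice. Serpina3n, a secreted serine protease inhibitor, read 10.76 and 11.42 in Notch-inactivated tumours against 5.33 and 5.63 in their normal tissue, 10.50 and 10.90 in Notch-activated tumours against 6.32 and 5.68, and 11.28 and 11.02 in WT tumours against 5.52 and 5.53. It was at least 41.2-fold higher in Notch-inactivated and 42-fold higher in WT tumours. Serpinh1, which in spite of its family name is a collagen chaperone, lay between 9.15 and 10.77 (median 10.16) over the 6 tumour arrays, against 5.70 to 6.45 (median 5.85) over the 6 normal arrays. Timp2, an inhibitor of matrix metalloproteinases, had differences of 3.71 in Notch-inactivated, 2.75 in Notch-activated and 3.78 in WT mice. For Timp3, of the same family, these were 1.90, 1.63 and 2.42. A further Timp3 probe gave 0.34, 0.64 and 0.60 in the same order and missed the rule.

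Among the proteases, Mmp12, the macrophage elastase, read 9.58 and 9.0 in Notch-inactivated tumours against 5.71 and 6.44 in their normal tissue, 7.01 and 6.94 in Notch-activated tumours against 5.61 and 5.46, and 8.61 and 9.63 in WT tumours against 5.56 and 5.53. Notch-activated tumours stood apart with the lowest Mmp12 signals of all tumours, at least 2.35-fold above normal tissue, against at least 10.3-fold in WT. Adamts4, a metalloprotease that cleaves the proteoglycan aggrecan, had differences of 1.19 in Notch-inactivated, 1.68 in Notch-activated and 1.90 in WT mice. Called but under the rule, Serpinf1 had 0.89, 0.78 and 1.31 (limma, adjusted p = 1.39e-05).

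The fibroblast and matrix list gave the largest number of members of any list. All 15 measured genes of the fibroblast and matrix list were called higher in tumours, where 29.7% of all features were, and 11 were members: Col1a1, Col3a1, Col5a1, Col6a1, Col6a3, Col15a1, Dcn, Mgp, Fbln2, Thbs2 and Loxl1. Dcn, the small proteoglycan decorin that binds collagen fibrils, read 12.12 and 12.30 in Notch-inactivated tumours against 6.97 and 8.26 in their normal tissue, 11.48 and 11.66 in Notch-activated tumours against 7.21 and 7.0, and 12.42 and 12.32 in WT tumours against 7.05 and 7.91. Col6a3, a chain of the beaded-filament collagen VI, read 9.90 and 10.28 in Notch-inactivated tumours against 5.73 and 5.87 in their normal tissue, 9.24 and 9.97 in Notch-activated tumours against 5.52 and 5.65, and 10.75 and 10.34 in WT tumours against 5.36 and 5.52, and the other chain that was a member, Col6a1, differed by 3.71 in Notch-inactivated, 3.45 in Notch-activated and 4.09 in WT mice. For both chains every tumour array lay above every normal array. Mgp, an inhibitor of calcification that fibroblasts and smooth muscle secrete, was at background in every normal sample and at least 56.4-fold, 12.3-fold and 41-fold higher in Notch-inactivated, Notch-activated and WT tumours.

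Col3a1, a fibrillar collagen, was at background in normal tissue of each genotype, and at least 6.06-fold higher in Notch-inactivated, 4.35-fold in Notch-activated and 6.69-fold in WT tumours. Col1a1 lay between 7.19 and 8.20 (median 7.92) over the 6 tumour arrays, against 5.37 to 5.85 (median 5.55) over the 6 normal arrays. Thbs2, a matricellular glycoprotein, was at least 12.1-fold, 8.11-fold and 11.2-fold higher in the same order. Loxl1, which cross-links elastin, was at least 3.5-fold, 2.42-fold and 3.18-fold higher. Of 18 measured collagen genes 6 were members, and 15 were called higher and 1 lower. Col15a1, a collagen of basement membranes, differed by 1.27, 1.32 and 1.13, and Fbln2, an extracellular glycoprotein, by 1.28, 1.74 and 1.38. Its relative Fbln1 was called by limma (adjusted p = 0.000315) and just missed the rule, with 0.80, 0.94 and 1.91.

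The mean log2 signal of the 15 fibroblast and matrix genes was 7.63 to 8.44 over the 6 tumour arrays, against 5.57 to 5.87 over the 6 normal arrays, and 8 of the 15 were at background on all 6 normal arrays. The 5 smooth muscle and glia genes moved little as a group, with means of 6.22 to 6.74 over the 6 tumour arrays, against 6.12 to 6.28 over the 6 normal arrays. There Acta2, smooth muscle actin, was a member (differences of 1.56, 1.05 and 1.26), while Synpo2, a smooth muscle actin-binding protein, was called lower (adjusted p = 5.87e-06) with differences of -0.70, -0.67 and -0.71. How far a larger share of stromal cells in tumour samples accounts for the matrix members was not tested.

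**Figure D3:**
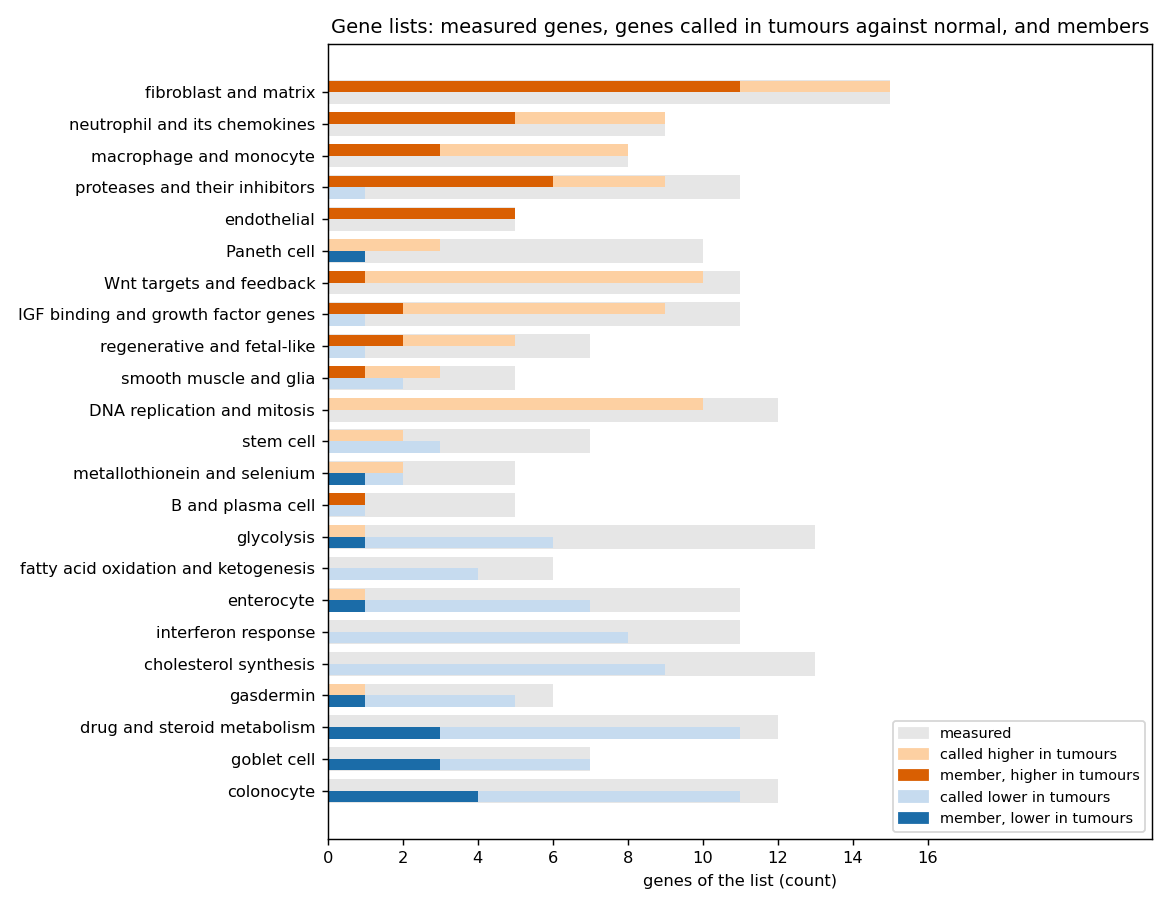
Number of genes in each list (horizontal axis) that were measured (grey), called higher (light orange) or lower (light blue) in tumours by limma, and that are members (dark colours), for the 23 lists with at least 5 measured genes. Lists are ordered from the highest median difference at the top to the lowest at the bottom. The fibroblast and matrix list has 11 members of 15 and the endothelial list 5 of 5; the colonocyte list has 4 lower members of 12 and the goblet cell list 3 of 7.

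All 3 measured genes of the Ltbp family, Ltbp1, Ltbp2 and Ltbp3, were members. Ltbp1 and Ltbp3 anchor latent transforming growth factor beta (TGF-beta) in the matrix, while Ltbp2 is a fibrillin-binding relative that does not bind it. Ltbp1 read 9.14 and 7.10 in Notch-inactivated tumours against 4.98 and 5.02 in their normal tissue, 6.33 and 6.32 in Notch-activated tumours against 5.04 and 5.11, and 9.51 and 9.46 in WT tumours against 5.09 and 5.15. The 2 Notch-inactivated tumour arrays differed widely and the Notch-activated ones were low, so its fold bounds ran from at least 1.49 in Notch-activated to at least 13.2 in WT tumours. Ltbp3 differed by 2.47 in Notch-inactivated, 1.66 in Notch-activated and 2.55 in WT mice. A further Ltbp3 probe gave 1.58, 0.94 and 1.32 in the same order and missed the rule in Notch-activated mice. Zeb1 and Zeb2, repressors of epithelial genes that mesenchymal cells express, were at background in all normal tissue. Zeb1 was at least 1.94-fold, 1.58-fold and 2.17-fold higher in Notch-inactivated, Notch-activated and WT tumours, and Zeb2 at least 2.38-fold, 1.98-fold and 2.08-fold. The Ltbp and Zeb genes were picked for naming after their values were seen.

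Every measured endothelial marker was a member: Pecam1, Emcn, Robo4, Eng and Egfl7, 5 of 5. Pecam1, an adhesion molecule of endothelial junctions, was at least 2.27-fold, 2.08-fold and 2.22-fold higher in Notch-inactivated, Notch-activated and WT tumours. Eng, a TGF-beta co-receptor of proliferating endothelium, gave 1.87-fold, 1.8-fold and 1.89-fold as lower bounds, and Robo4, an endothelial Robo receptor, 3.41-fold, 3.75-fold and 4.03-fold. Emcn, an endothelial sialomucin, lay between 8.05 and 8.80 (median 8.18) over the 6 tumour arrays, against 5.53 to 5.91 (median 5.62) over the 6 normal arrays. The mean log2 signal of these 5 genes was 7.01 to 7.45 over the 6 tumour arrays, against 5.35 to 5.57 over the 6 normal arrays, and 4 of the 5 were at background on every normal array. The lower bounds were of like size in the 3 genotypes, and the part of a larger share of vessels was not tested.

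Genes of neutrophils and of the chemokines that draw them were higher in every genotype. All 9 measured genes of that list were called higher and 5 were members: S100a9, Retnlg, Clec4d, Cxcl1 and Cxcl2. S100a9, a subunit of the neutrophil protein calprotectin, read 10.46 and 11.69 in Notch-inactivated tumours against 5.61 and 6.38 in their normal tissue, 10.50 and 11.04 in Notch-activated tumours against 7.11 and 5.46, and 11.72 and 10.35 in WT tumours against 5.36 and 5.30. Replicates differed by over 1 in some groups, yet each tumour array exceeded each normal array. Retnlg, a resistin-like protein of mouse neutrophils, read 8.83 and 10.32 in Notch-inactivated tumours against 6.24 and 5.81 in their normal tissue, 8.68 and 10.21 in Notch-activated tumours against 6.01 and 5.55, and 10.64 and 8.11 in WT tumours against 5.84 and 5.60. Cxcl1 and Cxcl2 are ligands of the receptor Cxcr2. Cxcl1 differed by 3.09 in Notch-inactivated, 1.46 in Notch-activated and 5.18 in WT mice, and Cxcl2 by 3.17, 2.65 and 4.58, with the largest differences in WT mice. Clec4d, a lectin receptor of myeloid cells, differed by 1.89, 1.76 and 2.35. Csf3r, the receptor for granulocyte colony-stimulating factor, and Ltf, the granule protein lactoferrin, were called higher in limma (adjusted p = 4.33e-05 and 0.000662) with 0.69, 0.87 and 1.19 and 1.47, 0.70 and 1.13. Csf3r missed the rule in Notch-inactivated and Notch-activated mice, and Ltf in Notch-activated mice. The list's mean log2 signal was 7.73 to 8.56 over the 6 tumour arrays, against 5.58 to 6.22 over the 6 normal arrays, and the part of neutrophil number in these members was not tested.

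Of 11 measured chemokine genes, 5 were higher members, Cxcl1, Cxcl2, Cxcl14, Ccl21a and Ccl21c, and 1, Ccl28, was a lower member. Ccl21a, a lymphatic and stromal chemokine whose copies are too alike for a probe to separate, differed by 3.31 in Notch-inactivated, 2.92 in Notch-activated and 1.69 in WT mice. Cxcl14, an epithelial and stromal chemokine, was at least 6.27-fold, 3.42-fold and 5.41-fold higher in the same order. Ccl28, an epithelial chemokine that attracts antibody-secreting cells, differed by -1.62, -1.09 and -1.68, in the direction opposite to the other 5.

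All 8 measured macrophage genes were called higher and 3 were members: Lyz2, Fcgr3 and Cd74. Lyz2, the lysozyme of macrophages, read 11.61 and 11.26 in Notch-inactivated tumours against 6.79 and 7.16 in their normal tissue, 9.75 and 9.33 in Notch-activated tumours against 6.99 and 7.20, and 10.48 and 11.07 in WT tumours against 6.32 and 6.10. Fcgr3, a receptor for immunoglobulin G, differed by 2.59 in Notch-inactivated, 1.94 in Notch-activated and 3.01 in WT mice. Cd74, the invariant chain of class II antigen presentation, differed by 1.97, 1.31 and 1.30, but its tumour and normal arrays overlapped, with a range between 8.09 and 10.05 (median 9.55) over the 6 tumour arrays, against 7.52 to 8.58 (median 7.80) over the 6 normal arrays. Without replicate 1 of Notch-activated tumours its Notch-activated difference was 0.33. C1qa and C1qb, complement subunits made by macrophages, were called (adjusted p = 2.21e-05 and 0.000175) and failed the rule only in Notch-activated mice, at 0.99 and 0.97.

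The Bcl2a1 genes, survival factors of the Bcl2 family in blood cells, formed a further group, with 3 of 3 measured copies as members. Bcl2a1b read 10.40 and 10.62 in Notch-inactivated tumours against 7.87 and 8.22 in their normal tissue, 9.58 and 9.18 in Notch-activated tumours against 7.91 and 8.29, and 10.25 and 10.54 in WT tumours against 6.77 and 6.61. Bcl2a1a and Bcl2a1d ran in parallel, with differences of 2.18, 1.18 and 3.08 and of 2.56, 1.22 and 3.88 in Notch-inactivated, Notch-activated and WT mice. The 3 copies are near-identical, so each probe may read the others. In all of them the WT difference was the largest, and WT normal tissue had the lowest signals.

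Their promoters are shown because all 3 match TGANTCA, as does the second listed start of Mmp12. This is a loose form of the AP-1 motif, the site type of Fos and Jun dimers, with any base in the middle. The middle base is A in the Bcl2a1 genes and G in Mmp12. Each sequence runs 5′ to 3′ from 250 bases before to 50 after the start (RefSeq, build GRCm38.p6), and capitals mark the match to TGANTCA, which reads the same on both strands.
Bcl2a1a, chr9:88956670-88956969, plus strand: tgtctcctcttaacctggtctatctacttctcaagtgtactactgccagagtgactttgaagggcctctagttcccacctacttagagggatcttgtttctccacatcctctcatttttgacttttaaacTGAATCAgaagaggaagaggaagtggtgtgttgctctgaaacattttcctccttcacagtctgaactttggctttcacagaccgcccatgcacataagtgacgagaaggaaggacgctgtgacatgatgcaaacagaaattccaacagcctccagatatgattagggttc
Bcl2a1b, chr9:89199023-89199322, plus strand: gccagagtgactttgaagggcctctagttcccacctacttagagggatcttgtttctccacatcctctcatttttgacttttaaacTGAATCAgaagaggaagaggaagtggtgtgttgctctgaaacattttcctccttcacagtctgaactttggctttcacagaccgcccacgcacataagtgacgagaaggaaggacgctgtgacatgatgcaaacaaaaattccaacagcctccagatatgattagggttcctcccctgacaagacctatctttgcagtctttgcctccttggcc
Bcl2a1d, chr9:88731801-88732100, minus strand: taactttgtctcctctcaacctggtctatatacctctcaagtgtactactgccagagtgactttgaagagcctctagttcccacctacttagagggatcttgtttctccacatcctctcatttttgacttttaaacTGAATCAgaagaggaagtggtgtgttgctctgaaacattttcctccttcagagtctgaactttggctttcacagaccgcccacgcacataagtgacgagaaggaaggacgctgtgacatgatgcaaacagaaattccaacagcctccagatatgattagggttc
Mmp12, chr9:7347124-7347423, plus strand: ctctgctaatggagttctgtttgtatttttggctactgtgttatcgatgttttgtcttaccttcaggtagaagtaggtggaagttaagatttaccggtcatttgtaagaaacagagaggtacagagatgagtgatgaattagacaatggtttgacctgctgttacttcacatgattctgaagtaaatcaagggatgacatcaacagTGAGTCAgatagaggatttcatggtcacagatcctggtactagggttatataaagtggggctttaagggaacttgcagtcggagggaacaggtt
The 3 Bcl2a1 promoters share a stretch of 84 bases that includes the match, so they count as 1 sequence rather than 3. A promoter was listed for 114 of the 185 named members. TGANTCA stood in 12 of 89 promoters of higher members (13.5%) and 1 of 25 of lower members (4%), or in 10 of 87 (11.5%) with the Bcl2a1 genes counted as 1, against 7.04% of the 4188 named features with a promoter and 8.97% of all 27025 genes of the table. The TCF/LEF core CTTTGAT, the letters that beta-catenin's partners bind, stood in 3 of the 89 (3.37%) and 0 of the 25, against 2.91% and 4.29%. All motifs were searched on both strands. The HNF4 letters CAAAGTCC stood in 4 of the 89 (4.49%) and 1 of the 25 (4%), against 1.91% and 1.63%, and the CDX2 letters TTTATGG in 2 of the 89 (2.25%) and 0 of the 25, against 2.39% and 3.21%. These are matches of letters, not sites.

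Immunoglobulin probes were the largest single family, with 39 members of 171 measured, all higher: 22 kappa, 14 heavy and 3 lambda chain. Of the 171, 132 were called higher and 7 lower. Igkc, the kappa constant region of most mouse antibodies, read 12.53 and 13.67 in Notch-inactivated tumours against 9.27 and 9.10 in their normal tissue, 13.49 and 12.35 in Notch-activated tumours against 9.62 and 9.76, and 13.47 and 13.91 in WT tumours against 8.63 and 6.96. Iglv1, a lambda variable segment, differed by 4.05 in Notch-inactivated, 4.01 in Notch-activated and 5.47 in WT mice. For both, no tumour array overlapped a normal one. The median over the 39 members was 1.62 in Notch-inactivated, 1.76 in Notch-activated and 2.66 in WT mice, with the largest difference in WT for 34 of them. Segments of a kind are alike in sequence, so these probes are not independent readings. The 5 measured genes of the B and plasma cell list included 1 member (Igkc), and 1 was called lower: Pigr, the epithelial receptor that carries IgA into the lumen, with -1.56, -0.45 and -1.75 (adjusted p = 0.000385). T cell receptor probes did not follow, with 1 member, Tcra, among 10 measured. Haemoglobin was also among the members: Hba-a1, the alpha chain of red blood cells, differed by 3.88, 1.81 and 3.53, and its tissues overlapped.

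**Figure D4:**
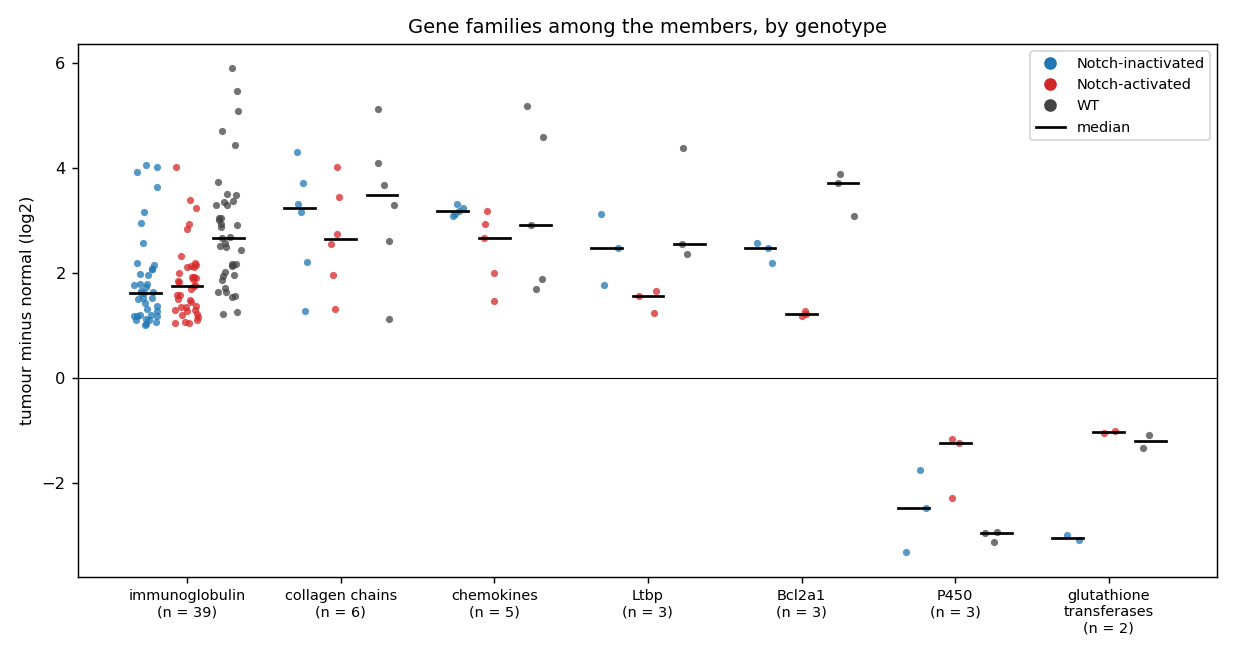
Tumour minus normal log2 difference (vertical axis) of members in 7 gene families, by genotype. Each point is 1 named member, black bars are medians, and n is the number of members drawn. Lower members are drawn for the P450 and glutathione transferase families and higher members for the rest, so Ccl28 is left out. The medians of the immunoglobulin, collagen, Ltbp and Bcl2a1 members are highest in WT, and that of the chemokines in Notch-inactivated mice. The rule itself requires the same sign in every genotype.

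The genes of Wnt signalling and of cell division showed how the rule divides tumour genes. Of 11 measured Wnt targets and feedback genes 10 were called higher, but only Sox4, a progenitor transcription factor, was a member. It read 11.16 and 11.02 in Notch-inactivated tumours against 7.90 and 8.03 in their normal tissue, 8.98 and 9.70 in Notch-activated tumours against 7.68 and 7.64, and 10.98 and 11.05 in WT tumours against 7.69 and 8.07. Nkd1, an inhibitor induced by the pathway, differed by 4.84 in Notch-inactivated, 0.76 in Notch-activated and 4.65 in WT mice (limma additive fit, adjusted p = 0.000522), and Prox1, a homeobox factor of intestinal adenomas, by 3.50, 0.39 and 3.79 (adjusted p = 0.000924). Both passed 1 in Notch-inactivated and WT mice and not in Notch-activated mice. The tumour difference differed between Notch-activated and WT mice in 6 of the 11 Wnt genes (limma, adjusted p under 0.05), where 12% of all features were called in that test. The 6 included the member Sox4, and the others fell short of the rule in Notch-activated mice. As the rule used the same differences, the count is only a description.

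DNA replication and mitosis genes gave 0 members of 12 measured, although 10 were called higher. Mcm7, a subunit of the replicative helicase, differed by 1.26 in Notch-inactivated, 0.91 in Notch-activated and 1.14 in WT mice (adjusted p = 1.76e-05) and Ccnb1, the mitotic cyclin B1, by 0.76, 0.78 and 0.79 (adjusted p = 0.000879). The list's median was 0.37 in Notch-inactivated, 0.43 in Notch-activated and 0.46 in WT mice, against -0.01, -0.02 and -0.03 over all features. In the test of the difference between Notch-activated and WT mice 0 of the 12 were called by limma at an adjusted p under 0.05, and 0 at an unadjusted p under 0.05.

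Of the 35 named lower members, 8 were in the colonocyte, goblet cell and enterocyte lists, and many of the rest were in none of the lists. Of 12 measured colonocyte genes 11 were called lower, where 33% of all features were, and 4 were members: Selenbp1, Hpgd, Fa2h and Slc9a2. Selenbp1, a methanethiol oxidase of the mature gut lining, read 7.50 and 7.37 in Notch-inactivated tumours against 11.14 and 10.92 in their normal tissue, 10.89 and 10.32 in Notch-activated tumours against 11.87 and 12.15, and 7.53 and 8.45 in WT tumours against 12.56 and 12.72. Tumours and normal tissue did not overlap, and Notch-activated tumours kept the highest tumour signals. Hpgd, which breaks down prostaglandins, read 8.35 and 7.70 in Notch-inactivated tumours against 10.03 and 9.66 in their normal tissue, 8.95 and 9.08 in Notch-activated tumours against 10.47 and 10.80, and 7.57 and 7.71 in WT tumours against 10.86 and 11.07. Fa2h, a fatty acid hydroxylase of sphingolipid synthesis, differed by -4.02 in Notch-inactivated, -1.53 in Notch-activated and -3.40 in WT mice, and Slc9a2, a sodium and proton exchanger of the apical membrane, by -3.41, -1.30 and -3.80. A further Slc9a2 probe gave -1.26, -0.47 and -1.68 in the same order and missed the rule in Notch-activated mice. The list's mean log2 signal in tumours was 8.21 in Notch-inactivated, 9.73 in Notch-activated and 8.77 in WT mice. Slc5a8, a butyrate and lactate carrier, was called lower (limma, adjusted p = 0.000754) with -4.14, -0.60 and -4.03 in Notch-inactivated, Notch-activated and WT mice, and so was no member. The list's median difference was -0.69 in Notch-activated against -3.28 in WT mice.

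All 7 measured goblet cell genes were called lower and 3 were members: Clca1, Retnlb and Klf4. Clca1, a secreted goblet cell protein that processes mucus, read 11.65 and 8.15 in Notch-inactivated tumours against 13.997 and 13.43 in their normal tissue, 6.75 and 5.81 in Notch-activated tumours against 10.11 and 6.58, and 7.81 and 12.10 in WT tumours against 13.93 and 13.86. Replicates spread widely, and Notch-activated normal tissue lay in the range of tumours. Without replicate 1 of Notch-activated normal tissue the Notch-activated difference of Clca1 was -0.30, under the threshold. Retnlb, a goblet cell resistin-like protein, read 10.12 and 7.36 in Notch-inactivated tumours against 13.83 and 9.27 in their normal tissue, 7.12 and 5.28 in Notch-activated tumours against 10.27 and 6.36, and 9.46 and 10.25 in WT tumours against 13.86 and 12.94, again with overlap, and without the same array its Notch-activated difference was -0.16. Klf4, a transcription factor of the villus and surface epithelium and of goblet cells, was steadier, at 8.43 and 8.21 in Notch-inactivated tumours against 11.06 and 10.76 in their normal tissue, 9.98 and 9.31 in Notch-activated tumours against 10.81 and 10.70, and 8.24 and 8.60 in WT tumours against 10.999 and 10.93. The list's mean log2 signal in normal tissue was 11.95 in Notch-inactivated, 8.52 in Notch-activated and 12.02 in WT mice. The median difference of the 10 Paneth cell genes was -0.11 in Notch-inactivated, 0.02 in Notch-activated and 3.77 in WT mice. Their mean log2 signal in normal tissue was 10.02, 5.57 and 6.63 in the same order. Of these genes 3 were called higher and 1 lower, and 1 was a member. The call of Defa5, an alpha-defensin and 1 of the 3 (limma, adjusted p = 0.0493), was lost with the replicate block (adjusted p = 0.0626), without the background filter (0.0627) and without any 1 of 6 arrays (up to 0.115). The member was Mptx1, a mucosal pentraxin, which read 8.75 and 6.02 in Notch-inactivated tumours against 12.98 and 10.20 in their normal tissue, 5.25 and 5.09 in Notch-activated tumours against 7.16 and 5.42, and 6.10 and 8.14 in WT tumours against 12.79 and 12.20. Its Notch-activated tumours were at background, as was 1 of their normal arrays, and without the other the Notch-activated difference was -0.25. The part of gut segment in these values was not tested, since the labels do not give it.

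A further 3 lower members were in the list of drug and steroid metabolism. Of its 12 measured genes 11 were called lower, and the members were Cyp4f14, Gsta1 and Hsd11b2. Cyp4f14, a cytochrome P450 that hydroxylates leukotrienes and fatty acids, had the largest smallest difference of all named lower members. It read 5.77 and 5.66 in Notch-inactivated tumours against 9.43 and 8.63 in their normal tissue, 6.63 and 6.31 in Notch-activated tumours against 8.45 and 9.06, and 5.86 and 6.35 in WT tumours against 9.18 and 9.25. Hsd11b2, which inactivates glucocorticoids, differed by -2.34 in Notch-inactivated, -1.01 in Notch-activated and -3.38 in WT mice, and Gsta1, a glutathione transferase, by -2.99, -1.05 and -1.08. Gsta1 and its close copy Gsta2 overlapped between tissues over all arrays. Of 14 measured cytochromes P450, 12 were called lower and 3 were members (Cyp4f14, Cyp2d10 and Cyp2d22). Ugt1a6a, a glucuronidating enzyme, missed the rule in Notch-activated mice, with -3.28, -0.87 and -3.15 (adjusted p = 0.000196).

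Eno3 encodes the muscle-type enolase of glycolysis. It read 7.59 and 8.29 in Notch-inactivated tumours against 11.15 and 11.11 in their normal tissue, 7.23 and 7.11 in Notch-activated tumours against 8.86 and 8.97, and 8.01 and 8.06 in WT tumours against 11.49 and 11.38. Each tumour array lay below each normal array, and Notch-activated normal tissue was over 2 log2 units under the other normal tissues. Of 13 measured glycolysis genes 6 were called lower, where 33% of all features were, and 1 higher, and Eno3 was the only member. The list's median difference was -0.33 in Notch-inactivated, -0.12 in Notch-activated and -0.02 in WT mice. Iyd, which removes iodine from iodotyrosines, read 5.92 and 5.75 in Notch-inactivated tumours against 7.11 and 6.89 in their normal tissue, 8.04 and 7.98 in Notch-activated tumours against 9.34 and 9.29, and 6.03 and 6.11 in WT tumours against 7.87 and 8.13. Tumours lay below normal tissue within each genotype, but Notch-activated tumours reached the level of WT normal tissue. St3gal4, a sialyltransferase, differed by -3.34, -1.47 and -3.54, Stk10, a kinase, by -1.90, -1.34 and -2.08 and Eci3, an isomerase of fatty acid oxidation, by -1.59, -1.41 and -2.67. Xpnpep2, a membrane aminopeptidase, rested on 1 array in Notch-activated mice, where it read 5.54 and 5.52 in tumours and 8.64 and 5.52 in normal tissue. Without the first of these normal arrays its Notch-activated difference was 0.014, of the opposite sign. Gsdmc2, a gasdermin and the only member among 6 measured, differed by -3.71, -1.01 and -4.26, and without that array by 0.18 in Notch-activated mice. Mep1b, the meprin beta protease of the brush border, was the only member of 11 enterocyte genes, at -2.64, -1.13 and -2.66, and 7 of those genes were called lower and 1 higher.

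Genotypes were also compared on the mean of tumour and normal tissue. The measurement error of this mean is independent of that of the difference. The mean itself is not: where normal tissue is at background, a smaller tumour signal lowers both. The counts below therefore describe the members and are no evidence separate from the smaller Notch-activated differences. Between Notch-inactivated and WT mice 17 of the 491 higher members were called higher (3.46%) and 5 lower (1.02%) in limma at an adjusted p under 0.05. Of the 116 lower members 1 was called higher (0.862%) and 10 lower (8.62%). Over all features 1.13% were called higher and 0.839% lower. More were called in Notch-activated mice. Of the higher members 17 were called higher and 150 lower (30.5%) in Notch-activated mice, where 10.3% of all features were higher and 10% lower. The 150 comprised 38 of the 126 higher members with normal tissue at background in all 3 genotypes, 39 of the 136 with it in 1 or 2 genotypes, and 73 of the 229 with it in none (31.9%). The median shift of the higher members was -0.29, against 0.01 over all features. Of the lower members 33 were called higher (28.4%) and 20 lower (17.2%), with a median of 0.04. Without replicate 2 of Notch-activated normal tissue 15 lower members were called higher, without replicate 1 of it 51, and without replicate 1 of WT normal tissue 21. The count called lower was 8 without replicate 1 of Notch-activated normal tissue and 13 without replicate 2 of WT tumours. The members called in Notch-inactivated mice, 33 in all, numbered 12 and 16 without either WT normal array, 14 and 20 without either WT tumour array, and 16 and 17 without either Notch-inactivated tumour array. They numbered 58 and 17 without either Notch-inactivated normal array, and 20 without replicate 2 of Notch-activated normal tissue. The mean of the fibroblast and matrix list was 8.35 in Notch-inactivated, 7.82 in Notch-activated and 8.39 in WT tumours, and its part in the shift was not tested.

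**Figure D5:**
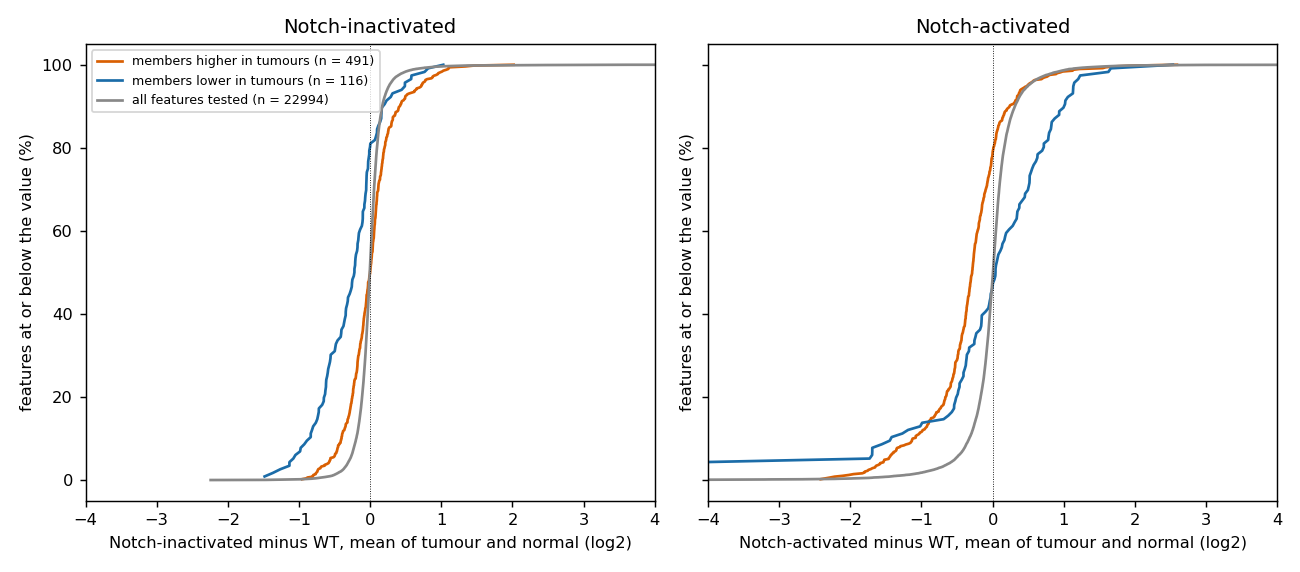
Cumulative share of features (vertical axis, %) by the genotype difference from WT averaged over tumour and normal tissue (horizontal axis, log2), for Notch-inactivated mice on the left and Notch-activated mice on the right. Orange is the 491 higher members, blue the 116 lower members and grey all 22994 features, and values beyond -4 or 4 are off the axis. In the Notch-activated panel the orange curve lies left of the grey one, with a median of -0.29, and the blue curve spreads to both sides.

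By the smallest adjusted p in Notch-inactivated mice the named members were Iyd, Cyp2d10, Igfbp4, Selenbp1 and Bcl2a1b. Iyd was lower in Notch-inactivated mice, by a log2 difference of -0.62 (SE 0.08, adjusted p = 0.00877), and higher in Notch-activated mice, by 1.63 (SE 0.08, adjusted p = 3.09e-06). Cyp2d10, another P450, was lower in Notch-inactivated mice at -0.93 (SE 0.13, adjusted p = 0.00957). Selenbp1 was lower there as well, at -1.08 (SE 0.19, adjusted p = 0.0263). In Notch-activated mice its tissue mean was higher, with tumours above and normal tissue below those of WT mice. Igfbp4 and Bcl2a1b were higher in Notch-inactivated mice, at 0.80 (SE 0.13, adjusted p = 0.0166) and 0.74 (SE 0.13, adjusted p = 0.0266), all in limma over both tissues. For Igfbp4 and Bcl2a1b the normal tissue was above that of WT mice, while Notch-inactivated and WT tumours had like signals. Leaving out single arrays ended the Notch-inactivated call of Igfbp4, Selenbp1 and Bcl2a1b, with adjusted p up to 0.0538, 0.0847 and 0.0873.

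Robo1, the Slit receptor, read 10.79 and 11.44 in Notch-inactivated tumours against 6.08 and 6.26 in their normal tissue, 6.67 and 7.25 in Notch-activated tumours against 5.50 and 5.64, and 11.27 and 10.73 in WT tumours against 6.16 and 6.57. The Notch-activated tumours stood apart from both other sets of tumours, and their normal tissue was at background. Onecut2, a transcription factor that was at background in every normal sample, had a fold bound of at least 10.1 in Notch-inactivated, 1.95 in Notch-activated and 12.4 in WT tumours. In the test of the tissue mean Timp2 was lower in Notch-activated mice at -1.15 (SE 0.10, adjusted p = 5.54e-05) and Eno3 at -1.69 (SE 0.13, adjusted p = 2.71e-05), both by limma over all features. Sox4 was lower at -0.95 (SE 0.15, adjusted p = 0.00148), as were Ifitm1 at -1.35 (SE 0.18, adjusted p = 0.000607) and Ifitm2 at -0.83 (SE 0.10, adjusted p = 0.000403), membrane proteins that restrict virus entry. Both Ifitm genes measured were members, and Ifitm1 read 14.16 and 14.13 in Notch-inactivated tumours against 9.41 and 10.30 in their normal tissue, 11.72 and 12.06 in Notch-activated tumours against 10.17 and 9.76, and 14.13 and 13.96 in WT tumours against 10.61 and 10.45. A further Ifitm1 probe missed the rule, with tumour minus normal differences of 0.65 in Notch-inactivated, 0.22 in Notch-activated and 0.94 in WT mice. Clca1 and Retnlb were lower at -4.61 (SE 1.07, adjusted p = 0.0132) and -4.37 (SE 1.12, adjusted p = 0.0211), again in limma. In the other direction, Gsta1 was higher at 1.20 (SE 0.17, adjusted p = 0.000797), Hpgd at 0.52 (SE 0.15, adjusted p = 0.0333) and Klf4 at 0.51 (SE 0.15, adjusted p = 0.0366) in Notch-activated mice. For Hpgd and Klf4 only the Notch-activated tumours were above those of WT mice, and the normal tissue was below that of WT mice.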

How the data were processed

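The values are the authors' deposited table of log2 signals, 1 column per array, which was used as deposited. The labels state Trizol and RNeasy extraction and biotin-labelled cRNA. The normalization is not given in the sources used here. All arrays have the same median, 5.54, and the same sorted values within 0.000543, and the range up to 14.2 is that of log2 signals, so the log base is inferred from the values. A second deposited table holds 24 per-sample columns that name no sample here and was not used. Of 46628 probes, 626 controls were removed. Features above the background limit on at least 2 arrays were kept, and a gene was read from its kept probe with the highest mean. Names come from the gene number in the probe identifier, matched to RefSeq (GRCm38.p6), or from segment names, for 5440 of 22994 features. Of 18 further kept probes of named members, 14 had the member's sign in all genotypes and 7 met the rule. Among those that kept the sign and missed the rule were probes of Timp3, Slc9a2, Ifitm1, Ltbp3 and Tns3. A probe each of Il1rl1, Slc11a1, Dnajc6 and Itpripl1 disagreed. These disagreeing probes, and the further ones of Timp3, Slc9a2 and Tns3, have the firmer names, read after 1 zero.

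The tests used limma 3.58.1 in R 4.3.3 with Benjamini-Hochberg adjustment over all features. Tumour against normal was fitted with genotype as a covariate (8 residual degrees of freedom). Genotype differences averaged over tissues, and differences of the tumour effect between genotypes, came from 6 group means (6 residual degrees of freedom). The fits were tested on simulated data. The members and gene lists were chosen with earlier results of these data known. Named genes are the 12 members with the largest smallest difference in each direction, members of the lists, and the 3 genes on each side of the threshold. Also named are the 5 members with the smallest adjusted p for each genotype difference, and up to 2 called genes of each list that are no members. The Bcl2a1, Ltbp, Zeb and Ifitm genes, Cxcl14, Ccl21a, Ccl21c, Ccl28, Cyp2d22, Gsta2 and Tcra were named after their values were seen. Replicate numbers gave no constant pairing: deviations of same-numbered samples correlated between -0.383 and 0.341 over 15 pairs of groups, with 2 over 0.1. The value of 0.341 was between Notch-inactivated and WT normal tissue, and -0.383 between Notch-inactivated and WT tumours. Whether these arrays share a batch was not tested, and the main fits treat arrays as independent.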

Additional observations from a re-analysis of the deposited data

Results flagged for a closer look

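The tumour difference of 4 genes that are no members differed between Notch-activated and WT mice in a test of that difference (limma over all features, 2 arrays per group). In all, 2759 of 22994 features (12%) were called in this test, and these 4 were picked by name. Their small Notch-activated differences are also what kept them from being members, so the calls are no separate evidence. Nkd1, a Wnt feedback inhibitor, had a tumour difference that was -3.89 in Notch-activated minus WT mice (adjusted p = 1.53e-05). It read 6.03 and 6.10 in Notch-activated tumours against 5.32 and 5.29 in their normal tissue, while WT tumours had 10.09 and 9.70 against 5.24 and 5.26. Normal tissue was at background, so these differences are not full folds. Prox1, a homeobox factor, differed by -3.40 in the same test (adjusted p = 3.16e-05). It read 5.85 and 6.0 in Notch-activated tumours against 5.63 and 5.44 in their normal tissue, while WT tumours had 9.33 and 9.75 against 5.69 and 5.80.

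A pair of genes went the other way. Slc5a8, a carrier for short-chain fatty acids, differed by 3.43 (adjusted p = 0.00117), with 10.92 and 10.41 in Notch-activated tumours against 11.12 and 11.41 in their normal tissue, and 7.69 and 8.47 in WT tumours against 12.03 and 12.19. Aqp4, a water channel, differed by 2.76 (adjusted p = 0.0377), with 11.65 and 10.31 in Notch-activated tumours against 11.49 and 11.41, and 7.88 and 9.18 in WT tumours against 11.91 and 11.61. The Aqp4 call was lost in 6 of the repeats with other settings or 1 array left out, where its adjusted p lay between 0.081 and 0.123.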

How the results depend on the processing

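The 607 members were 662 after cyclic loess, 590 of them shared, 607 without a background filter or with a filter on 6 arrays, 604 with the mean over probes, and 526 with values raised to the background limit. Asking that every tumour array lie beyond every normal array of its genotype by over 1 left 363, of which 327 were higher and 36 lower. Cyclic loess called 7517 features higher and 6471 lower, against 6826 and 7599. With the replicate number as a block, 14166 features were called between tissues, 412 for Notch inactivation and 4593 for Notch activation, and 156 higher members were called lower in Notch-activated mice; the block moved no count by over 1.5 times. As each array was left out in turn, members numbered 563 to 665, higher ones 465 to 501 and lower ones 98 to 164. Features called between tissues numbered 13253 to 14417, in Notch-activated mice 3415 to 4895, and in Notch-inactivated mice 204 to 659, against 453 with all arrays. Of the tests of tumour differences against WT, the Notch-activated one called 1593 (without replicate 1 of Notch-activated tumours) to 2899 features, and the Notch-inactivated one 57 to 169. Higher members called lower in Notch-activated mice numbered 113 to 158, lower members called higher 15 to 51 and called lower 8 to 27, and members called in Notch-inactivated mice 12 to 58. The smallest difference of Xpnpep2 ran from -1.41 to 0.014 and that of Gsdmc2 from -2.20 to 0.18, with the opposite sign without replicate 1 of Notch-activated normal tissue; that of Cxcl9 ran from -0.18, without replicate 1 of Notch-activated tumours, to 1.51. The cause was not tested. Signals near the background limit bound what can be said of dim genes.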

Other observations

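Some gene groups were called over all arrays and gave no member. Of 13 measured cholesterol synthesis genes 9 were called lower in tumours (limma), where 33% of all features were, with 0 members. Of 11 measured interferon response genes 8 were called lower and 0 were members. Oas1a, an antiviral RNA sensor, differed by -2.35, -0.47 and -3.06 (adjusted p = 0.00172) in Notch-inactivated, Notch-activated and WT mice.

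Mt3 and Mt4, metallothioneins that bind zinc and copper, were called higher by limma (adjusted p = 0.00067 and 0.00155). Mt3 differed by 4.67, 0.66 and 4.48 and Mt4 by 5.18, 0.37 and 5.58 in Notch-inactivated, Notch-activated and WT mice, so both missed the rule through Notch-activated mice. Lyz1, the lysozyme of Paneth cells, was called higher (adjusted p = 0.00973) with 0.98, 1.13 and 5.76, and Cma1, a mast cell chymase, lower (adjusted p = 0.00493) with -3.71, -0.74 and -0.90. Of the 3 measured genes of the mast cell list only Cma1 was called. Mcpt4, a further mast cell protease, had 0.64, -1.79 and 0.28 (limma, adjusted p = 0.479).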
